A study of Mus musculus with 12 samples.

Results

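The adrenergic, muscarinic and cAMP signalling genes described here are 9 of the 38293 genes in the deposited tables and were matched by symbol. They are Adrb1, Adra1a, Adra1b, Chrm2, Gnas, Gnai2, Pde3a, Pde4d and Prkaca, and all 9 were measured in every library and passed the filter on low counts in both tables. RNA was sequenced from the left ventricle of young adult male mice in 4 groups of 3 animals each. WT sham and WT IR hearts came from wild-type C57Bl/6J mice after sham surgery or 14 days after ischaemia–reperfusion (IR), in which the left anterior descending coronary artery was tied for a time and then released, and a time after surgery is not given for the sham mice. Zeb2 WT IR and Zeb2 cTg IR hearts were also taken 14 days after IR, and their strain is recorded as C57Bl/6J too. In the Zeb2 cTg line, Zeb2 was placed at Rosa26 behind a floxed stop cassette that Cre driven by the Myh6 promoter removes in cardiomyocytes, and wild-type littermates served as the Zeb2 WT mice. Whether those littermates carry Cre is not stated in the sources used here, and uninjured Zeb2 cTg hearts were not analysed here. The sources differ on the piece of tissue taken: the methods name the remote zone, the sample records the left ventricle, and the design text the infarct with its border zone.

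Cardiomyocytes answer to catecholamines from sympathetic nerves and the circulation. The β1-adrenergic receptor couples to the stimulatory G protein, which activates adenylyl cyclase, and the cAMP formed releases the catalytic subunit of protein kinase A (PKA) to phosphorylate phospholamban, the ryanodine receptor and troponin I, so that the heart contracts more strongly and relaxes faster. Acetylcholine from the vagus acts on the M2 muscarinic receptor, which couples to the inhibitory G protein, phosphodiesterases break cAMP down again, and the α1-adrenergic receptors signal through a different G protein, Gq, to calcium and growth responses. Loss of β1-adrenergic receptors is a textbook feature of the failing heart.

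Among the receptors, Adrb1 (ENSMUSG00000035283) encodes the β1-adrenergic receptor and lies on chromosome 19 at 56722199 to 56733113 of GRCm38. Adra1a (ENSMUSG00000045875, chromosome 14, 66635251 to 66771168) and Adra1b (ENSMUSG00000050541, chromosome 11, 43774606 to 43901210) encode the α1A- and α1B-adrenergic receptors, and Chrm2 (ENSMUSG00000045613, chromosome 6, 36388084 to 36528414) the M2 muscarinic receptor. Gnas (ENSMUSG00000027523, chromosome 2, 174284320 to 174346744) encodes the stimulatory α subunit of the G protein from a complex imprinted locus, and the counts do not tell its several first exons apart. Gnai2 (ENSMUSG00000032562, chromosome 9, 107614125 to 107635367) encodes an inhibitory α subunit. Pde3a (ENSMUSG00000041741, chromosome 6, 141249269 to 141507448) and Pde4d (ENSMUSG00000021699, chromosome 13, 108449948 to 109953461) encode cAMP phosphodiesterases, and Prkaca (ENSMUSG00000005469, chromosome 8, 83972993 to 83996443) the catalytic subunit α of PKA. Reads were counted over all exons of each gene, so that introns play no part.

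The promoters shown are those of the 3 genes that passed the test after IR in WT hearts, because cAMP acts on transcription through CREB, which binds the cAMP response element. Each is the 250 bases before a RefSeq start on GRCm38.p6, 5′ to 3′ on the strand of the gene, and capitals mark the core of that element, TGACG, or its reverse complement CGTCA. Adrb1 (chr19:56721867-56722116, plus strand) has 1 such core and the first start of Prkaca (chr8:83972728-83972977, plus strand) has 2. Adra1b has 2 starts, the outer one at chr11:43901238-43901487 and the inner one at chr11:43836490-43836739, both on the minus strand, with none in either window. A second start of Prkaca (chr8:83976633-83976882, plus strand), whose window is not printed, has none either.
Adrb1: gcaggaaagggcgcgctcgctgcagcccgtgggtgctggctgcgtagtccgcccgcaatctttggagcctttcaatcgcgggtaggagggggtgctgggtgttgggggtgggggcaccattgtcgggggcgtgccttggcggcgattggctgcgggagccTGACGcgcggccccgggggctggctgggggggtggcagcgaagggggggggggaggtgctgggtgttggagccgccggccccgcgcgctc
Adra1b, outer start: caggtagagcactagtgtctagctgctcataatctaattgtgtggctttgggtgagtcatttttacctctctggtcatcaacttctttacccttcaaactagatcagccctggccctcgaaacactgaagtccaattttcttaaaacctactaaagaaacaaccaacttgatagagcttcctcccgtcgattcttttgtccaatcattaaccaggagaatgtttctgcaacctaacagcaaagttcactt
Adra1b, inner start: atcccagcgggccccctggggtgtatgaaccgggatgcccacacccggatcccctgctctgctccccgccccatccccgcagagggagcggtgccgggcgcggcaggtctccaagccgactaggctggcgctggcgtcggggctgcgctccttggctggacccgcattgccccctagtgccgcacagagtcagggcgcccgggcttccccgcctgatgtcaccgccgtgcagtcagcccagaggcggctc
Prkaca, first start: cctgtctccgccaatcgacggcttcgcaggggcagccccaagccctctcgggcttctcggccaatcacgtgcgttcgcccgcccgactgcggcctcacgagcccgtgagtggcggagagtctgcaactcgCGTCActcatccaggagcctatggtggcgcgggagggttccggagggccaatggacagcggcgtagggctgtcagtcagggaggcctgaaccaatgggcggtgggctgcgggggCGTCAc
Of 32851 RefSeq promoters of this length, 17.8% hold the TGACG core in 1 direction or the other. The E-box CACCTG, or CAGGTG on the other strand, which ZEB proteins bind, is held by 17.2% of them. It is absent from all 4 windows shown. RefSeq entries were found for 6 of the 9 genes, with 11 starts, of which 5 windows in 3 genes held the core and 1 window, of Gnas, held the E-box. The Gnas windows at chr2:174327499-174327748 and chr2:174327518-174327767 overlap and hold the same core, which is thus counted in both. These are matches of letters and not measured binding.

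Depth did not limit these genes equally. Between 20215781 and 36816818 reads were counted per library, of which between 60.6% and 73.5% lay on the mitochondrial genome. CPM are counts per 1e6 counts, scaled with the TMM factors of edgeR, and 1 CPM stood for between 17.2 and 37.8 counts, so that the members rested on between 54 (Adra1b) and 7470 (Gnas) counts in a library. Zeb2 was read first as a check of the labels. It stood at 54.7, 57.8 and 67.0 CPM in Zeb2 WT IR and at 55.5, 56.9 and 58.7 CPM in Zeb2 cTg IR, a log2 fold change of -0.069 (adjusted p = 0.750), so that a higher Zeb2 RNA level was not seen where the label says a transgene is expressed; the sign turned to 0.15 with a correction for GC content. The latter 3 hearts are therefore called the hearts labelled Zeb2 cTg IR. All 22 cardiomyocyte markers were measured above the filter in both tables, as the tissue label requires.

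Within WT sham hearts, the level per kilobase of exon set the genes in an order that runs over more than an order of magnitude. Prkaca had the highest level at 32.1 ± 0.926 CPM per kb (SD, n = 3), followed by Gnas at 17.5 ± 0.325, Chrm2 at 15 ± 1.25 and Gnai2 at 8.88 ± 0.238 CPM per kb. These neighbours were apart in all 3 libraries. Pde4d (3.03 ± 0.229 CPM per kb), Adra1b (2.93 ± 0.298) and Pde3a (2.77 ± 0.222) overlapped each other, and Adra1a (1.94 ± 0.0537) and Adrb1 (1.77 ± 0.0326) were lowest. Of the receptor genes among the 9, the M2 receptor gene had the highest level per length and the β1 receptor gene the lowest. In WT IR hearts Adrb1 stayed last at 0.883 ± 0.114 CPM per kb, apart from Adra1b above it at 1.59 ± 0.369, while Gnas and Chrm2 overlapped. In both Zeb2 groups Chrm2 stood above Gnas, at 17.6 ± 1.22 against 13.0 ± 0.723 CPM per kb in Zeb2 WT IR and at 21 ± 2.57 against 15.1 ± 1.81 CPM per kb in the hearts labelled Zeb2 cTg IR. Adrb1 and Adra1b were the lowest genes in Zeb2 WT IR and overlapped (0.993 ± 0.159 and 1.03 ± 0.149 CPM per kb). Levels per length assume all annotated exons, which overstates the length of genes with many isoforms, such as Gnas and Pde4d.

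**Figure D1:**
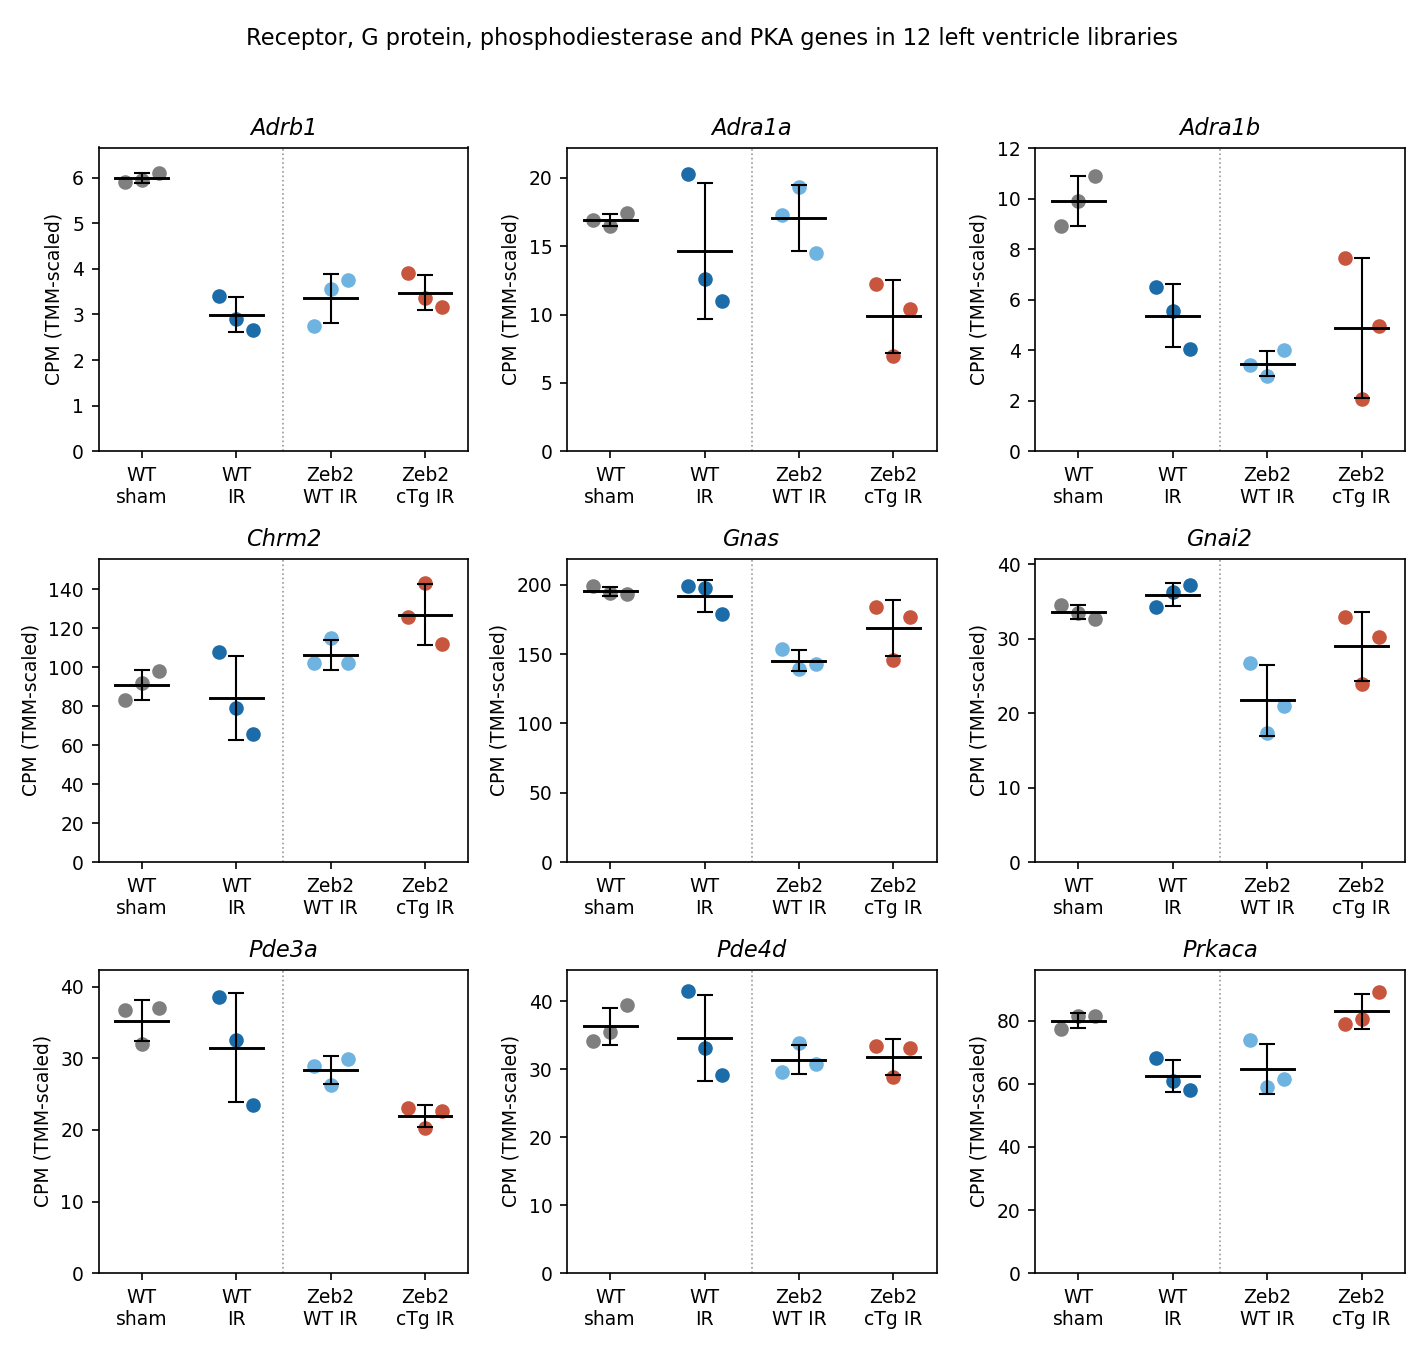
TMM-scaled CPM (vertical axis from 0) of the 9 genes in each library; points are mice, the horizontal line is the mean of 3 and the bar 1 SD, and the dotted line parts the tables, which were normalized separately. Adrb1, Adra1b and Prkaca lie lower in every WT IR library than in any WT sham library, and Adra1a and Pde3a lie lower in every heart labelled Zeb2 cTg IR than in any Zeb2 WT IR library.

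The comparison of WT IR with WT sham hearts asked how the injury alters cardiac expression. Of the 9 genes, 3 passed the test, all lower after IR: Adrb1, Adra1b and Prkaca. By edgeR's quasi-likelihood test with Benjamini-Hochberg adjustment over all genes, 20.8% of the 13756 genes tested passed at 0.05, 9.74% lower and 11.0% higher. For 8 of the 9 genes the fold change was below zero, against 49.2% of all genes tested, with a median log2 fold change of -0.16 against 0.0064 over all genes. Of the 9, 3 had groups without overlap, and 39.8% of all genes tested had none.

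Adrb1 was at 5.90, 5.95 and 6.11 CPM in the WT sham hearts and at 3.41, 2.91 and 2.65 CPM in the WT IR hearts. All injured hearts lay well below all sham hearts, which differed little from each other. The β1 receptor transcript fell to 0.501 of its sham level, a log2 fold change of -1.0 (SE 0.126, 95% interval -1.28 to -0.71, adjusted p = 0.00339). It passed in all 6 fits that left out a library and in all 9 other settings, with log2 fold changes between -1.10 and -0.73.

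Adra1b, the α1B receptor gene, stood at 8.93, 9.90 and 10.9 CPM in WT sham and at 6.50, 5.55 and 4.03 CPM in WT IR hearts. The groups did not overlap, and the level fell to 0.546 of the sham level (log2 fold change -0.87, SE 0.162, 95% interval -1.24 to -0.51, adjusted p = 0.00879). Without the second WT sham library the adjusted p was 0.0550 at a log2 fold change of -0.89. Adra1a, the other α1 receptor gene, behaved differently within the injured group: WT sham hearts had 16.9, 16.5 and 17.4 CPM and WT IR hearts 20.3, 12.6 and 11 CPM. A single injured heart lay above all sham hearts and the other two below them, so that the log2 fold change was -0.21 (95% interval -0.64 to 0.22, adjusted p = 0.474). Without that first WT IR library it was -0.51 with an adjusted p of 0.00101.

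Chrm2 showed the same spread. The M2 receptor gene had 83.1, 91.7 and 98.1 CPM in WT sham and 108, 79.3 and 65.9 CPM in WT IR hearts, with the highest and the lowest value both in the injured group. The log2 fold change was -0.11 (95% interval -0.46 to 0.24, adjusted p = 0.656). It was -0.32 (adjusted p = 0.0214) without the first WT IR library and 0.038 (adjusted p = 0.875) without the third.

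The remaining receptors of the family were rare in this tissue. Of the 14 adrenergic and muscarinic receptor genes on the list, 7 could be tested in the WT table, and Adrb1, Adra1b and Adra1d passed, all lower. Adra1d, the α1D receptor gene typical of vascular smooth muscle, had only 6 to 33 counts per library and a mean of 1.02 CPM in sham and 0.281 CPM in IR hearts (log2 fold change -1.82, SE 0.303, adjusted p = 0.00647). It met the main filter through the WT sham group, where it was high. The setting that asked for at least 10 counts in every library dropped it. Adrb3 was at 0 or 1 count per library, so that a difference was not detectable at this depth, and Adra2a, Adra2c, Chrm1, Chrm3, Chrm4 and Chrm5 were also below the filter, none above 0.219 CPM.

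Neither Gnas nor Gnai2 passed the test. Gnas, for the stimulatory subunit, was at 199, 194 and 193 CPM in WT sham and at 199, 198 and 179 CPM in WT IR hearts. The groups overlapped almost entirely, and the 95% interval of the log2 fold change (-0.026, adjusted p = 0.852) ran from -0.21 to 0.16. Gnai2, for the inhibitory subunit, had 34.5, 33.5 and 32.7 CPM in sham and 34.2, 36.3 and 37.2 CPM in IR hearts. The lowest injured heart lay among the sham hearts and the other two above them, and the interval ran from -0.063 to 0.25 (log2 fold change 0.096, adjusted p = 0.361). Scaled to the cardiomyocyte markers, the log2 fold change of Gnai2 was 0.39 (adjusted p = 0.0539), where the median over all genes was 0.289.

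The phosphodiesterase members were spread like Adra1a and Chrm2. Pde3a had 36.8, 32.0 and 37 CPM in WT sham and 38.5, 32.5 and 23.5 CPM in WT IR hearts (log2 fold change -0.16, 95% interval -0.51 to 0.18, adjusted p = 0.487). Pde4d had 34.1, 35.5 and 39.4 CPM in sham and 41.5, 33.1 and 29.2 CPM in IR hearts (log2 fold change -0.068, 95% interval -0.35 to 0.21, adjusted p = 0.724). For both enzymes the injured hearts reached above and below the sham hearts.

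Prkaca, the PKA catalytic subunit gene, was at 77.3, 81.3 and 81.3 CPM in WT sham and at 68.0, 60.9 and 58.1 CPM in WT IR hearts. No injured heart reached the sham level, and the level fell by 22.1% (log2 fold change -0.36, SE 0.0822, 95% interval -0.54 to -0.18, adjusted p = 0.0169). The adjusted p rose to 0.0869 without the second WT sham library, 0.0548 without the third and 0.0807 without the second WT IR library. Scaled to the 22 cardiomyocyte markers in place of all genes, the log2 fold change was -0.086 (adjusted p = 0.516), where the median over all genes was 0.289. This scaling used the summed marker counts, of which Ttn made up most.

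Cell type markers moved with this comparison. The summed level of the 22 cardiomyocyte markers was 68525 to 74997 CPM in WT sham and 53019 to 67862 CPM in WT IR hearts, with 21 of 22 below zero and 7 lower by the test. Ttn made up most of the sum, at a mean of 39258 CPM in WT sham and 33774 CPM in WT IR hearts. All 10 fibroblast markers and all 10 macrophage markers were above zero, with 8 passing in each list. Their sums ran from 898 to 1367 CPM in sham and 2350 to 5409 CPM in IR hearts for fibroblasts, and from 152 to 167 CPM and 223 to 428 CPM for macrophages. The atrial list, of which 3 of 6 genes were tested, was at 58.2 to 72.8 CPM in sham and 258 to 448 CPM in IR hearts, with 1 of the 3 passing. That 1 was Nppa, at a mean of 25.9 CPM in sham and 311 CPM in IR hearts. Kcnj3 was at a mean of 39.4 and 27.0 CPM, with groups that overlapped (adjusted p = 0.0820 by edgeR), and Myl4 was at 0.601 and 0.874 CPM. In the WT IR group, 8 of the 9 genes, all but Gnai2, were ordered among the 3 hearts as the cardiomyocyte marker sum was, against 0 of 9 in WT sham and 1 of 9 in each Zeb2 group. The same order was held by 23.3% of all genes tested in WT IR, 16.3% in WT sham, 13.7% in Zeb2 WT IR and 8.37% in the hearts labelled Zeb2 cTg IR. In tissue of mixed cells, fewer cardiomyocytes and less RNA per cardiomyocyte cannot be told apart. With scaling to the cardiomyocyte markers, the median over all genes was 0.289, and it turned Adra1a, Chrm2, Gnas, Pde3a and Pde4d above zero, none of them past the test, whereas Adrb1 (-0.73, adjusted p = 0.0124) and Adra1b (-0.62, adjusted p = 0.0238) stayed lower and passed.

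**Figure D2:**
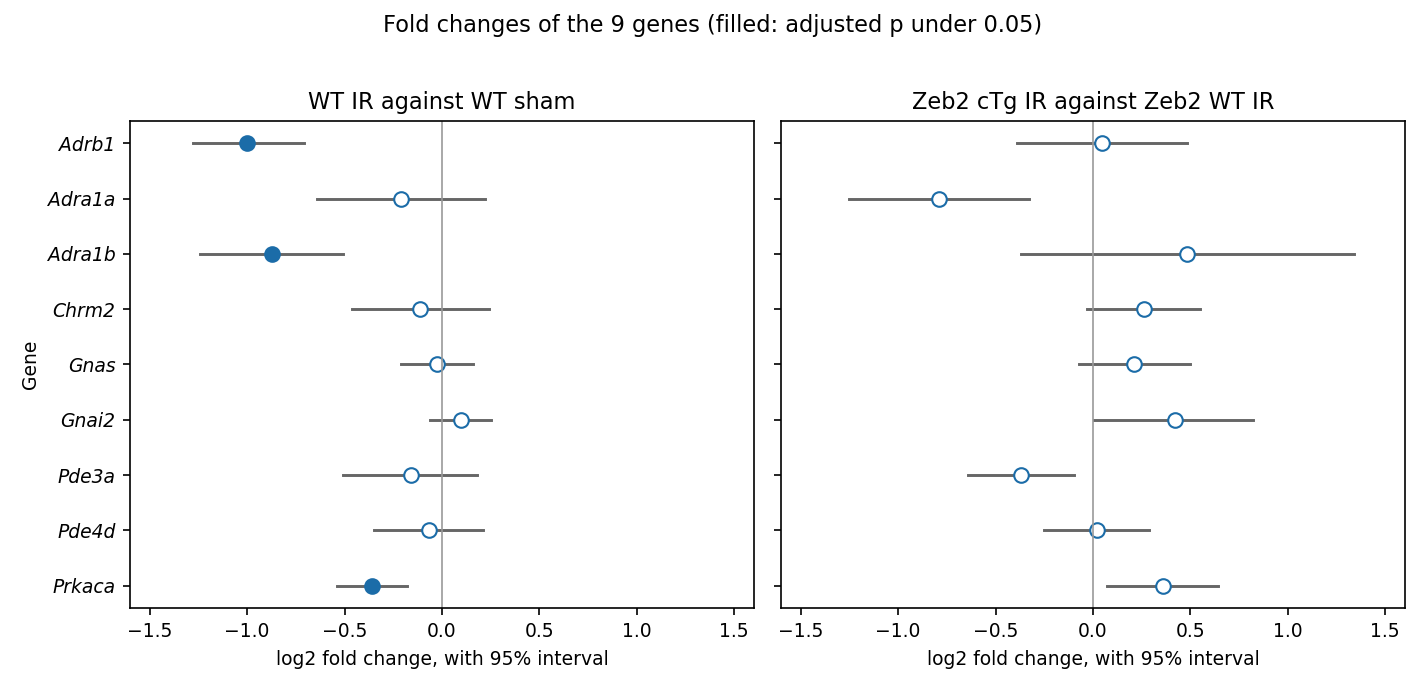
Log2 fold changes (horizontal axis) of the 9 genes with their 95% intervals from the edgeR fit, for WT IR against WT sham and for the hearts labelled Zeb2 cTg IR against Zeb2 WT IR; filled points passed at an adjusted p of 0.05. Adrb1, Adra1b and Prkaca are filled on the left, and no point is filled on the right, where Adra1a lies farthest from zero at -0.79.

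Around the 9 genes, 110 further genes of the pathway could be tested in the WT table, of which 14 passed higher and 17 lower, with a median log2 fold change of -0.062. Over all genes tested, 11.0% passed higher and 9.74% lower, and these shares belong beside the count of each list below. The 25 of these with the smallest p-values may be named here. Of those 25, all 12 that rose and 3 of the 13 that fell, Adra1d, Pde4a and Ddc, still passed when scaled to the cardiomyocyte markers. That scaling moved the whole table up, to a median of 0.289 over all genes, with 2901 genes called higher and 241 lower. Calls of higher genes were thus favoured by it and calls of lower genes disfavoured. The 10 calls lost with that scaling were all of lower genes: Adcy5 (log2 fold change -0.27, adjusted p = 0.0834), Adcy9 (-0.26, adjusted p = 0.102), Pde7b (-0.22, adjusted p = 0.345), Akap1 (-0.20, adjusted p = 0.128), Rapgef3 (-0.15, adjusted p = 0.366), Pde4b (-0.14, adjusted p = 0.464), Pkig (-0.14, adjusted p = 0.387), Grk2 (-0.13, adjusted p = 0.437), Gna12 (-0.13, adjusted p = 0.302) and Bves (-0.12, adjusted p = 0.450). With a correction for GC content 22 of the 25 passed, all but Prkar1a, Gna12 and Gnai3. Without the second WT sham library, which lowered the calls over all genes from 2859 to 421, 1 passed (Adra1d), and without the second WT IR library 7 did. Adra1d met the filter through the WT sham group, where it was high. Among receptor kinases, arrestins and RGS proteins, 5 of 19 tested passed higher and 1 lower. The 1 that fell was Grk2, the kinase that uncouples β receptors from their G protein, from 22.4 ± 1.20 to 16.9 ± 2.09 CPM (SD, n = 3, log2 fold change -0.41, adjusted p = 0.0220). Its relative Grk5 rose from 12.4 ± 0.362 to 16.4 ± 1.28 CPM (log2 fold change 0.40, adjusted p = 0.0136), as did Rgs10, Rgs18 and Arrb2, which encodes β-arrestin 2, at log2 fold changes of 1.05, 1.35 and 0.59 (adjusted p = 0.0110, 0.0238 and 0.0274). Rgs18 met the filter through the WT IR group, where it was high.

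Among 15 cAMP phosphodiesterase genes tested, 2 rose and 3 fell, where 20.8% of all genes tested passed. The risers were 2 genes of the calmodulin-stimulated family: Pde1a from 4.27 ± 0.170 to 10.3 ± 3.95 CPM (log2 fold change 1.26, adjusted p = 0.0107) and Pde1b from 1.28 ± 0.212 to 2.34 ± 0.391 CPM (0.89, adjusted p = 0.0168). Pde1c of the same family had a higher level and did not pass, at 56.5 ± 4.28 and 59.3 ± 5.54 CPM (0.071, adjusted p = 0.619). Pde4a (log2 fold change -0.71, adjusted p = 0.00767), Pde4b (-0.43, adjusted p = 0.0103) and Pde7b (-0.51, adjusted p = 0.0126) fell. Neither Pde3a nor Pde4d was among those that passed.

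Of the 9 genes for PKA subunits and PKA inhibitors, Prkar1a passed higher, and Prkaca and Pkig passed lower. Prkar1a encodes the regulatory subunit RIα that holds the catalytic subunit inactive, and it rose from 165 ± 14.5 to 219 ± 13.0 CPM (log2 fold change 0.41, SE 0.0944, adjusted p = 0.0173). With a correction for GC content its log2 fold change was 0.28 (adjusted p = 0.0729). Pkig, a peptide inhibitor of PKA, fell by 0.40 on the log2 scale (adjusted p = 0.0270). Of the 12 anchoring proteins tested only Akap1, which holds PKA at mitochondria, was called (-0.47, adjusted p = 0.0156), and among the other cAMP effectors Bves (-0.39, adjusted p = 0.0129) and Rapgef3, the cAMP-activated exchange factor Epac1 (-0.43, adjusted p = 0.0240), fell.

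Among G protein subunits, Gnai3 rose (log2 fold change 0.54, adjusted p = 0.0271) and Gna12 fell (-0.41, adjusted p = 0.0220), while 4 of 10 β and γ subunits rose and 0 fell, with Gnb4 (0.48, adjusted p = 0.00897), Gng12 (0.42, adjusted p = 0.0101) and Gng2 (0.86, adjusted p = 0.0111) leading. Of 8 adenylyl cyclases tested, Adcy5 (33.4 ± 3.47 to 23.0 ± 3.14 CPM, log2 fold change -0.54, adjusted p = 0.0122) and Adcy9 (-0.53, adjusted p = 0.0121) fell and Adcy7 rose (0.94, adjusted p = 0.0207), whereas Adcy6 had 67.0 ± 10.7 and 52.8 ± 10.1 CPM (-0.34, adjusted p = 0.128). Of 10 PKA substrate genes of cardiomyocytes tested, some of which are also cardiomyocyte markers, 9 were below zero and 3 passed lower. Pln, for phospholamban, had 2455 ± 118 and 2143 ± 305 CPM (-0.20, adjusted p = 0.342). Of 8 genes for handling of catecholamines and acetylcholine, 2 passed lower, and Ddc, for the decarboxylase that forms dopamine, fell from 2.95 ± 0.916 to 0.938 ± 0.377 CPM (log2 fold change -1.67, adjusted p = 0.0111).

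**Figure D3:**
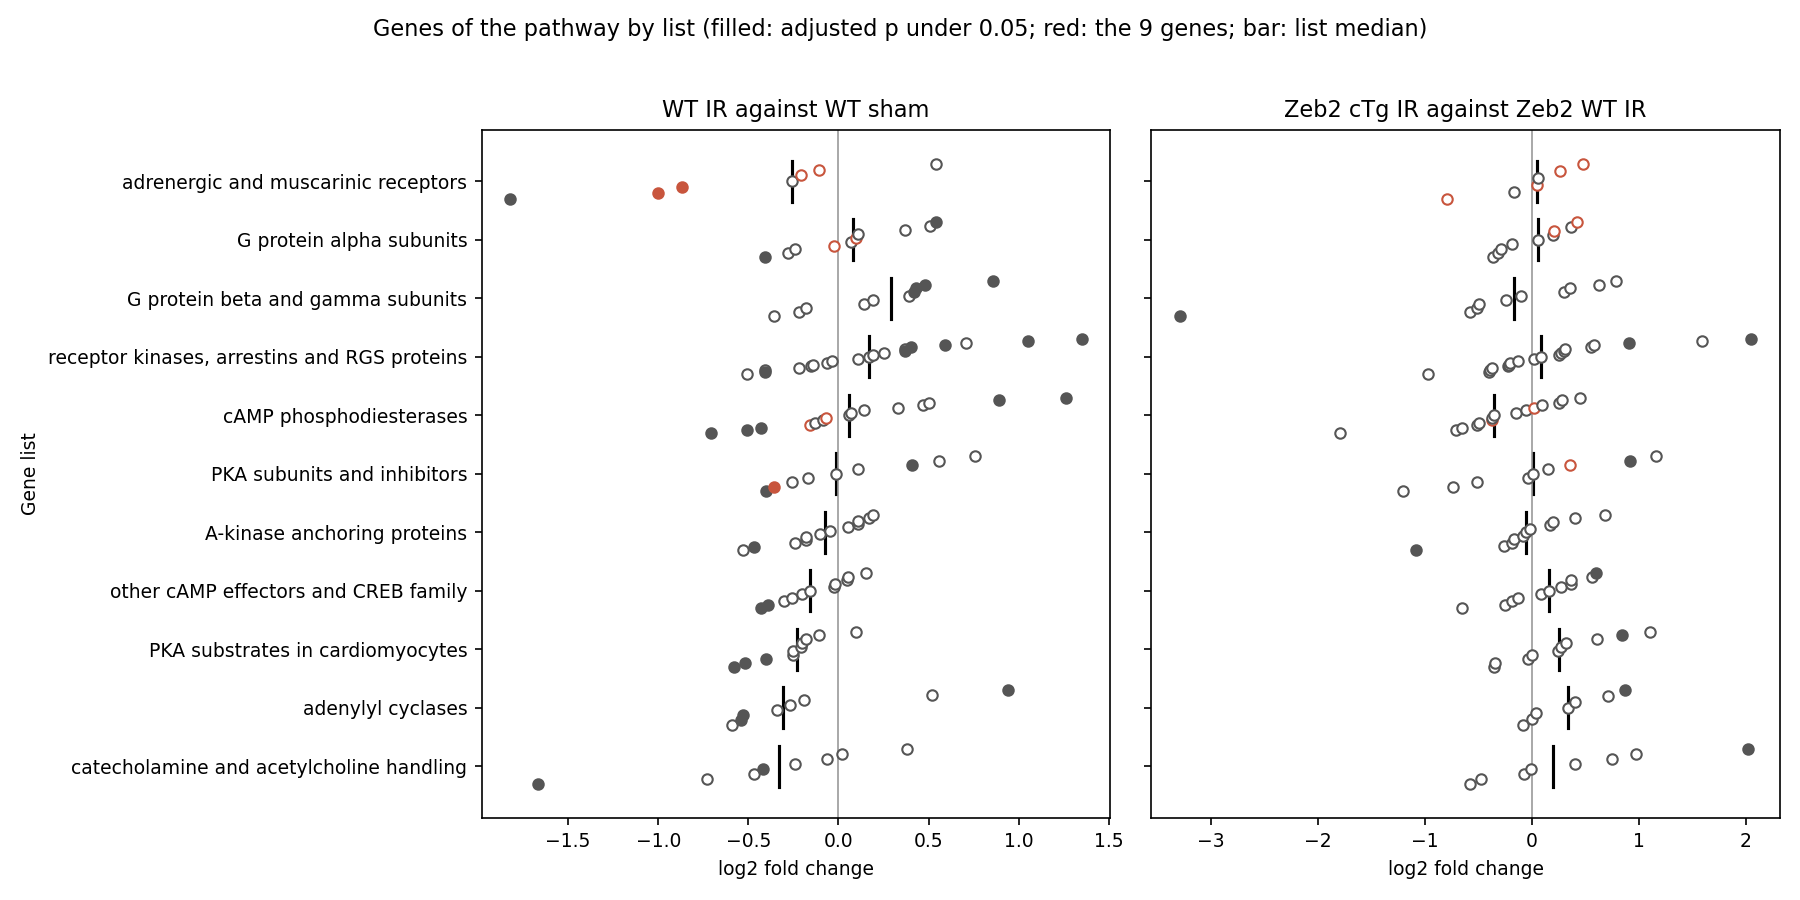
Log2 fold changes (horizontal axis) of the tested genes of each pathway list (rows) in both comparisons; each point is a gene, filled where the adjusted p was under 0.05, red for the 9 genes, and the bar is the median of the list. The horizontal scales differ. On the left the receptor list has its median at -0.26 and the β and γ subunits at 0.29; on the right few points are filled, Rgs6 at 2.05 and Gnb3 at -3.29 among them.

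The comparison of the hearts labelled Zeb2 cTg IR with Zeb2 WT IR asked what cardiomyocyte Zeb2 overexpression changes in the injured heart. None of the 9 genes passed the test (0 of 9 by edgeR), where 3.64% of the 13018 genes tested passed, 2.14% higher and 1.51% lower. At an unadjusted p under 0.05 there were 4 of the 9, against 24.1% of all genes tested: Adra1a and Pde3a lower and Gnai2 and Prkaca higher. DESeq2 called 1, Adra1a. Of the 9, 7 were above zero, with a median log2 fold change of 0.21 against 0.0059 over all genes. Groups did not overlap for 3 of the 9, against 26.2% of all genes tested.

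Adra1a was nearest to the threshold. It had 17.3, 19.3 and 14.5 CPM in Zeb2 WT IR and 12.2, 6.99 and 10.4 CPM in the hearts labelled Zeb2 cTg IR. All 3 of the latter lay below all 3 controls (log2 fold change -0.79, SE 0.205, 95% interval -1.25 to -0.33, unadjusted p = 0.00350, adjusted p = 0.0640). The adjusted p was 0.00743 with DESeq2, 0.00472 with no filter, 0.0383 with a correction for GC content, 0.0249 when scaled to the cardiomyocyte markers and 0.0332 without the second heart labelled Zeb2 cTg IR. It did not pass in the other 5 fits that left out a library, nor in 4 of the 9 other settings, and its log2 fold change ran from -0.97 to -0.61 over all of them.

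Adra1b had 3.41, 2.99 and 4.0 CPM in Zeb2 WT IR and 7.63, 2.06 and 4.94 CPM in the hearts labelled Zeb2 cTg IR. The second of these was the lowest of all and the other two the highest, so that the interval was wide (log2 fold change 0.48, 95% interval -0.37 to 1.34, adjusted p = 0.455). Without that library the log2 fold change was 0.84 with an adjusted p of 0.0324.

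Adrb1, lower after IR in the WT table, did not differ by the test between the injured genotypes. It had 2.75, 3.56 and 3.76 CPM in Zeb2 WT IR and 3.90, 3.36 and 3.17 CPM in the hearts labelled Zeb2 cTg IR (log2 fold change 0.045, adjusted p = 0.906). The interval, from -0.39 to 0.48, leaves room for a difference of either sign smaller than the drop seen after IR, and the sign turned to -0.40 (adjusted p = 0.396) with the GC correction. Chrm2 had 102, 115 and 102 CPM against 126, 143 and 112 CPM. Only the third heart labelled Zeb2 cTg IR lay within the range of the controls (log2 fold change 0.26, 95% interval -0.032 to 0.55, adjusted p = 0.253). With the GC correction Chrm2 was called, at 0.45 (adjusted p = 0.0140).

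Gnas had 154, 139 and 143 CPM in Zeb2 WT IR and 184, 146 and 177 CPM in the hearts labelled Zeb2 cTg IR, and the groups overlapped through the second of these (log2 fold change 0.21, 95% interval -0.071 to 0.50, adjusted p = 0.324). Its sign turned to -0.18 (adjusted p = 0.382) with the GC correction. Gnai2 had 26.8, 17.4 and 21 CPM against 32.9, 23.9 and 30.2 CPM, again with only the second of the latter inside the control range (log2 fold change 0.42, 95% interval 0.0072 to 0.82, adjusted p = 0.202). With the GC correction its log2 fold change was 0.085. Both genes are rich in G and C, at 57.8% and 56.7% of the transcript.

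Pde3a had 28.9, 26.2 and 29.9 CPM in Zeb2 WT IR and 23.0, 20.2 and 22.7 CPM in the hearts labelled Zeb2 cTg IR. The groups did not overlap, with a log2 fold change of -0.37 (SE 0.120, 95% interval -0.64 to -0.099, adjusted p = 0.110), -0.18 with the GC correction and -0.55 (adjusted p = 0.0386) when scaled to the cardiomyocyte markers. Pde4d had 29.6, 33.8 and 30.8 CPM against 33.5, 28.8 and 33.1 CPM, fully intermingled (log2 fold change 0.019, 95% interval -0.25 to 0.29, adjusted p = 0.940).

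Prkaca had 73.8, 58.8 and 61.5 CPM in Zeb2 WT IR and 78.9, 80.6 and 89.1 CPM in the hearts labelled Zeb2 cTg IR. All of the latter were above all controls (log2 fold change 0.36, SE 0.128, 95% interval 0.07 to 0.64, adjusted p = 0.135). With the GC correction it was 0.12 (adjusted p = 0.559). An exact two-sided permutation test of 3 hearts against 3 cannot go below 0.1, and it gave 0.1 for each gene without overlap.

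Of 106 further pathway genes tested in this table, 7 passed higher and 2 lower, with a median log2 fold change of 0.0071. Over all genes tested, 2.14% passed higher and 1.51% lower. Rgs6, for an RGS protein that speeds the end of inhibitory G protein signalling after M2 receptor activation, was at 4.33, 3.16 and 3.07 CPM in Zeb2 WT IR and at 14.4, 18.2 and 11.2 CPM in the hearts labelled Zeb2 cTg IR (log2 fold change 2.05, SE 0.218, adjusted p = 0.00204). Gnb3, a G protein β subunit gene, was at 2.68, 1.42 and 2.57 CPM against 0.335, 0.153 and 0.197 CPM (log2 fold change -3.29, SE 0.395, adjusted p = 0.00417). Each passed in all 6 fits without a library. Rgs6 passed in all 9 other settings and Gnb3 in the 8 that gave a value. The setting that asked for at least 10 counts in every library dropped Gnb3. It met the main filter through the Zeb2 WT IR group, where it was high. Rgs12 (log2 fold change 0.91, adjusted p = 0.0204), Pkig (0.92, adjusted p = 0.0127), Popdc2, a cAMP-binding membrane protein gene (0.60, adjusted p = 0.0269), Mybpc3, for the PKA substrate cardiac myosin-binding protein C (0.84, adjusted p = 0.0244), and Ddc (2.02, adjusted p = 0.0178) were the others that rose beside Adcy6. Akap5, an anchoring protein gene, fell (-1.08, adjusted p = 0.0269). Of these 9 calls, 2 held without the third Zeb2 WT IR library, 2 without the third heart labelled Zeb2 cTg IR and 4 without the first, and all 9 held without the second. Scaled to the cardiomyocyte markers, Popdc2 was at 0.42 (adjusted p = 0.0615) and was no longer called.

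Adcy6 had 49.3 ± 9.78 and 90.2 ± 17.8 CPM (log2 fold change 0.87, adjusted p = 0.0369). Leaving out a single library kept the Adcy6 call in 2 of 6 cases, and it was lost when scaled to the cardiomyocyte markers (0.69, adjusted p = 0.0590). Adcy5 had 19.0 ± 4.93 and 31.0 ± 5.42 CPM (0.71, adjusted p = 0.0797). Prkar1a had 186 ± 18.6 and 131 ± 15.8 CPM without overlap (log2 fold change -0.51, adjusted p = 0.0671). Pln had 3320 ± 475 and 2624 ± 269 CPM (-0.34, adjusted p = 0.220), and Grk2 12.6 ± 2.81 and 15.7 ± 3.45 CPM (0.31, adjusted p = 0.380). Adrb3 had at most 2 counts in a library.

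The cardiomyocyte marker sum was 66106 to 70345 CPM in Zeb2 WT IR and 74317 to 79298 CPM in the hearts labelled Zeb2 cTg IR, with 18 of 22 markers above zero and 2 passing. Ttn again made up most of the sum, at a mean of 42227 against 46512 CPM. The fibroblast sum was 1107 to 2356 CPM against 798 to 1145 CPM, with 8 of 10 below zero and 3 passing. The atrial list, of which 3 of 6 genes were tested, was at 65.9 to 93.0 CPM against 173 to 322 CPM. Only Nppa passed among them, at a mean of 38.7 against 208 CPM. Kcnj3 was at 39.4 against 52.7 CPM and Myl4 at 0.438 against 1.36 CPM. Macrophage markers were at 182 to 249 CPM against 181 to 213 CPM with 0 of 10 passing. The part of these differences in the values of the 9 genes was not tested beyond the scaling to cardiomyocyte markers, under which the median over all genes was -0.171.

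Ratios of genes that act as a pair do not depend on how a library was scaled. The 6 pairs were chosen after the values were seen, and the smallest p that the exact permutation test allows is 0.1. The level of Adra1a relative to Adra1b was 1.89, 1.66 and 1.59 in WT sham and 3.12, 2.26 and 2.74 in WT IR hearts, all higher after IR. In the Zeb2 table it was 5.09, 6.46 and 3.62 in Zeb2 WT IR and 1.59, 3.39 and 2.10 in the hearts labelled Zeb2 cTg IR, all lower. The log2 differences were 0.65 and -1.13 (exact permutation p = 0.1 in each).

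The ratio of Prkaca to Prkar1a sets a catalytic subunit gene of PKA over a regulatory subunit gene. It was 0.429, 0.502 and 0.536 in WT sham and 0.330, 0.279 and 0.25 in WT IR hearts. It was 0.438, 0.319 and 0.299 in Zeb2 WT IR and 0.649, 0.541 and 0.733 in the hearts labelled Zeb2 cTg IR. The groups were apart in both tables, with log2 differences of -0.77 and 0.87 (exact permutation p = 0.1 in each). With the GC correction the fold changes of the pair drew together in the Zeb2 table, 0.12 for Prkaca and -0.38 for Prkar1a on the log2 scale. Other subunit genes did not pass in either table. The regulatory Prkar2a was at log2 fold changes of -0.26 (adjusted p = 0.0530) in the WT table and 0.0095 (0.971) in the Zeb2 table. The catalytic Prkacb was at 0.11 (0.269) and -0.037 (0.880).

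Adrb1 relative to Chrm2, the receptors of opposite action, was 0.0660 ± 0.00448 in WT sham and 0.0362 ± 0.00429 in WT IR hearts (SD, n = 3), without overlap, and overlapped in the Zeb2 table at 0.0316 ± 0.00492 and 0.0276 ± 0.00376. The ratios are not corrected for GC content. With the GC correction the fold changes of this pair drew apart in the Zeb2 table, -0.40 for Adrb1 and 0.45 for Chrm2 on the log2 scale. Grk5 relative to Grk2 was 0.557 ± 0.0165 in WT sham and 0.985 ± 0.167 in WT IR hearts, without overlap, and was spread over 0.746 to 1.31 in Zeb2 WT IR and 0.701 to 1.55 in the hearts labelled Zeb2 cTg IR. Gnai2 relative to Gnas overlapped in both tables, at 0.172 ± 0.00182 and 0.188 ± 0.0181 in the WT table. Pde3a relative to Pde4d overlapped in the WT table and was lower in all 3 hearts labelled Zeb2 cTg IR (0.687, 0.70 and 0.684) than in Zeb2 WT IR (0.978, 0.776 and 0.97).

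**Figure D4:**
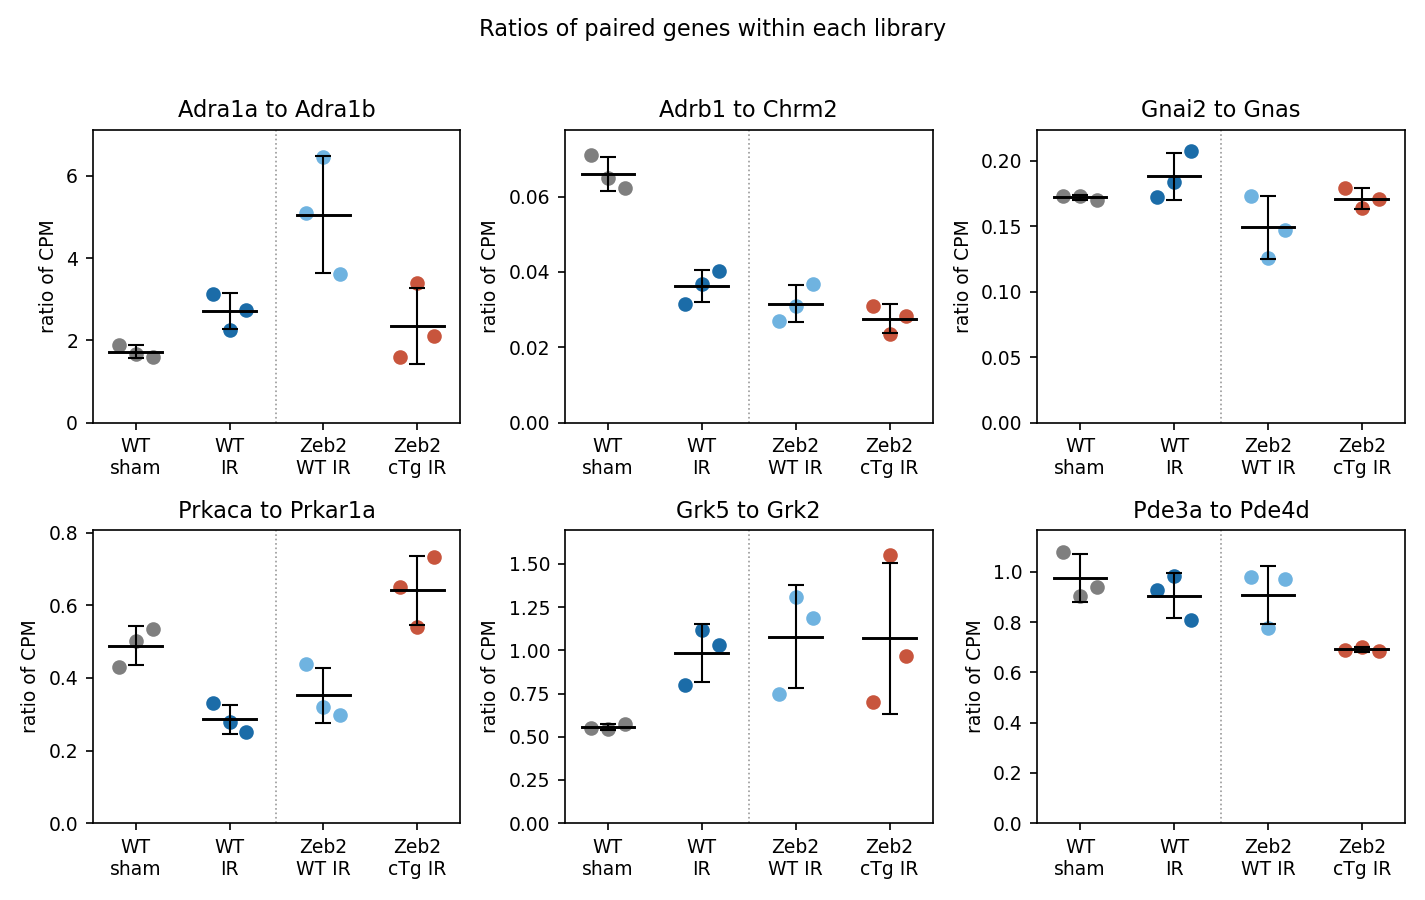
Ratio of the CPM of paired genes within each library (vertical axes from 0); points are mice, lines the mean of 3, bars 1 SD, and the dotted line parts the tables. The ratio of Prkaca to Prkar1a is lower in every WT IR heart than in any WT sham heart and higher in every heart labelled Zeb2 cTg IR than in any Zeb2 WT IR library.

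For each receptor the 3 genes with the most similar pattern were sought among 12002 genes, by the root mean square difference of log2 CPM over the 12 libraries after centring within each table. For Adrb1 these were mt-Tp, a mitochondrial transfer RNA gene, Hfe2, for hemojuvelin, and Acot2, a mitochondrial acyl-CoA thioesterase gene, at differences of 0.120, 0.146 and 0.158, where the median gene was at 0.438. Adra1a was most like Car14, Agtr1a and Abcc9, at 0.161, 0.166 and 0.185 against a median of 0.470, and Agtr1a, the angiotensin II type 1a receptor gene, was lower in the hearts labelled Zeb2 cTg IR (log2 fold change -0.84, adjusted p = 0.0320). Abcc9 is also among the pericyte markers. Adra1b was most like Crhr2, a receptor gene for urocortins, Fitm1 and Atg4d, at 0.158, 0.204 and 0.205 against 0.581. Chrm2 was most like Ccdc141, Tctn3 and Lmo7, at 0.0820, 0.0975 and 0.0998 against 0.304. These are descriptions over 12 libraries that share their scaling, without a test.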

How the data were processed

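RNA of 12 left ventricles, 3 per group, was measured by stranded single-end RNA-seq. Per the submitters' processing notes and the methods, reads were aligned to mm10 with STAR 2.4.2a and counted on GENCODE M4 genes with HTSeq 0.6.1, and the authors deposited raw read counts per gene in 2 tables of 6 libraries, without normalization. Library preparation is named as a total RNA kit in the methods and as an mRNA kit in the sample records. Counts that fall on overlapping genes or near-identical copies may be lost or split. All columns were used, and library totals ran from 20215781 to 36816818 counts.

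Groups came from the sample records. Each table was fitted on its own in R 4.3.3 with edgeR 4.0.16 (TMM factors, filterByExpr with a minimum count of 10 and a minimum total of 15, quasi-likelihood test, two-sided, Benjamini-Hochberg adjustment over all genes tested, threshold 0.05). CPM are counts per 1e6 after TMM scaling, and SE is the fold change over the root of the F statistic. The filter keeps a gene that is high in 1 group only. No replicate pair agreed within sampling noise (chi-square per gene 7.42 to 80.4). Symbols, positions, exon lengths and GC content are from GENCODE M21 (GRCm38; 36429 identifiers had a symbol), promoters from RefSeq.

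Alternatives were RLE factors, scaling to 22 cardiomyocyte markers, mitochondrial genes left out, no filter, at least 10 counts in every library, DESeq2 1.42.0, the replicate number as a block, an offset for GC content (loess, span 0.5), both together, and each library left out; fits with 2 hearts in a group take the spread from the remaining 5 libraries. The members and lists were chosen with earlier results of these data known. Named are the 9 genes, Zeb2, the pathway genes that passed (at most 25 per comparison, by p), Adrb3, Prkar1a, Grk2, Pln, Adcy5 and Adcy6, and the 3 genes most like each receptor. The receptors under the filter, the pathway genes Pde1c, Prkacb and Prkar2a, and the markers Ttn, Nppa, Kcnj3 and Myl4 are named outside that rule. The phosphodiesterase Pde2a was not analysed here, and some genes that meet this rule are not reported here.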

Additional observations from a re-analysis of the deposited data

How the results depend on the processing

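In the WT table, leaving out 1 library gave 421 to 4980 genes called, 1 to 5 of the 9 genes called, and a Zeb2 log2 fold change of 0.38 to 0.59, against 0.47 with all libraries (adjusted p = 0.0219). The lowest counts came without the second WT sham library and the highest without the first WT IR library. Scaling to cardiomyocyte markers gave 2901 genes higher and 241 lower, and the GC correction 1183 higher and 1592 lower, against 1519 and 1340. The call of Zeb2 was lost without the first or second WT sham or the second WT IR library, with the GC correction (0.29) and with the replicate block and GC correction (0.28). The sign turned, with no call, when scaled to cardiomyocyte markers for Adra1a (0.04), Chrm2 (0.14), Gnas (0.25), Pde3a (0.093) and Pde4d (0.19), with the GC correction for Gnas (0.087) and with the block and GC correction for Gnas (0.085). Without 1 library the ranges were -0.32 to 0.038 for Chrm2, -0.054 to 0.019 for Gnas, -0.33 to 0.0059 for Pde3a and -0.22 to 0.036 for Pde4d.

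Between the Zeb2 groups 474 genes were called, and 98 to 2419 without 1 library, the most without the second heart labelled Zeb2 cTg IR. The counts were 915 when scaled to cardiomyocyte markers (188 higher and 727 lower), 1553 with no filter, 1096 with DESeq2, 836 with the GC correction, 1813 with the replicate block and 744 with the block and GC correction. Of the 9 genes, 2 were called when scaled to cardiomyocyte markers, 1 with no filter, 1 with DESeq2, 2 with the GC correction and 0 to 2 without 1 library. Zeb2 turned to 0.15 with the GC correction and 0.15 with the block and GC correction, and ran from -0.13 to 0.019 without 1 library. Adrb1 turned to -0.13 when scaled to cardiomyocyte markers, -0.40 with the GC correction, -0.39 with the block and GC correction and ran from -0.082 to 0.14 without 1 library. Gnas turned to -0.18 with the GC correction and with the block and GC correction, Pde4d to -0.16 when scaled to cardiomyocyte markers and ran from -0.026 to 0.079 without 1 library, and Grk2 turned to -0.029 and -0.027 with the GC correction without and with the block. The cause of these changes was not tested.

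Equal replicate numbers belong to different animals. Deviations of same-numbered libraries correlated between -0.0343 and 0.0119 in the WT table and between -0.0425 and 0.26 in the Zeb2 table, where not every library correlated best with its own number, so the numbers were not taken as pairs. With the replicate block, 2595 genes and the same number of the 9 genes, 3, were called in the WT table. Between the Zeb2 groups the block called 3 of the 9 genes, Adra1a (adjusted p = 0.0320), Gnai2 (0.0323) and Pde3a (0.0425), and 1, Chrm2 (0.0231), with the block and GC correction.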
